A study of Mus musculus with 6 samples.

Results

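The 10 genes described here make and clear angiotensin II (Ang II), receive it at the cell surface and pass its signal on to G proteins and calcineurin. They are *Agt*, *Ace*, *Enpep*, *Lnpep*, *Agtr1a*, *Agtr1b*, *Agtrap*, *Gnaq*, *Gna11* and *Rcan1*, taken from the deposited table by gene name. All 10 were found among its 41721 genes, and 7 passed the filter on low counts that left 14085 genes for testing. Their read counts were compared between mouse aortic smooth muscle cells (MASMCs) of 2 genotypes, Pdk4fl/fl and Pdk4SMKO, with 3 libraries of each. Pdk4fl/fl mice carry loxP sites around exons 4, 5 and 6 of *Pdk4*, which encodes a kinase that inhibits the pyruvate dehydrogenase complex. Pdk4SMKO mice carry the same alleles and a Cre recombinase that tamoxifen activates, driven by the promoter of the smooth muscle myosin gene *Myh11*. The methods give tamoxifen at 75 mg/kg/day for 5 days to both genotypes in vivo, without saying whether the donors of the cultures received it. MASMCs came from the abdominal aortas of mice aged 10 weeks and were used at passages 4 to 8. Every library was labelled as treated with Ang II, so that no library shows these genes without the hormone. MASMCs were given Ang II at 1 μM for 48 h per the methods.

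Angiotensinogen, encoded by *Agt*, is cut by renin to angiotensin I, and angiotensin-converting enzyme (ACE) cuts angiotensin I to Ang II. Ang II acts on vascular smooth muscle mainly through the type 1 receptor (AT1), which in mice is encoded by the gene pair *Agtr1a* and *Agtr1b*. The receptor couples to the alpha subunits Gαq and Gα11, which activate phospholipase C beta and so release calcium from internal stores. Calcium activates the phosphatase calcineurin, whose target NFAT induces *Rcan1*, an inhibitor of calcineurin, while aminopeptidases break Ang II down into shorter peptides.

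The libraries held between 16526044 and 22481670 counted reads, and a count of 3, taken as the floor, corresponded to between 0.132 and 0.227 CPM (reads relative to the size of the library, scaled by the TMM method). *Pdk4* had 570, 639 and 421 counts in the Pdk4fl/fl libraries and 110, 182 and 141 counts in the Pdk4SMKO libraries, a mean of 19.8% of the Pdk4fl/fl CPM (log2 fold change -2.34, adjusted p 4.49e-06). The genotypes stood far apart across all genes, since Pearson's correlation of log2 CPM across genes was at least 0.986 within a genotype and between 0.763 and 0.791 across them. Of the 14085 genes tested, 59.3% were called (edgeR's quasi-likelihood test, with an adjusted p under 0.05 and at least a 2-fold difference), with 32.8% called higher and 26.5% called lower in Pdk4SMKO cells. A call is therefore the common outcome for any gene in these libraries. The libraries went against the study's description on 1 point. The methods state that the mice were male, yet *Xist*, which is transcribed from an inactive X chromosome, had 610, 347 and 321 counts in the Pdk4SMKO libraries against 3, 4 and 5 in the Pdk4fl/fl libraries. This holds for every Pdk4SMKO library, so that this difference and genotype cannot be told apart, and none of the 10 genes lies on the X chromosome.

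Smooth muscle markers, summed over 8 genes, held between 785 and 811 CPM in Pdk4fl/fl and between 723 and 954 CPM in Pdk4SMKO libraries. None of the 8 was at 0 in a genotype, and 4 were called higher and 3 lower. Mesothelial markers held between 74.2 and 99.99 CPM in Pdk4fl/fl and between 723 and 1325 CPM in Pdk4SMKO libraries, and all 7 that were tested were called higher. Fibroblast markers held between 141 and 173 CPM against 1320 to 2774 CPM, with 3 of 6 called higher and 1 lower. Macrophage markers held between 22.7 and 40.1 CPM against 62.8 to 64.1 CPM, with 6 of the 7 tested called higher and 1 lower. Of the 8, 4 were at 0 in every Pdk4fl/fl library. Such genes can pass the filter only through Pdk4SMKO libraries and can then only be called higher. Endothelial markers held between 16.0 and 24.9 CPM against 3.33 to 6.72 CPM, with 2 of the 3 tested called lower. Beside the calls in these lists, 32.8% of all genes tested were called higher and 26.5% lower. In such bulk libraries, fewer cells of a type and less RNA per cell cannot be told apart. The part that these differences played in the values of the 10 genes was not tested.

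Across the 10 genes, *Ace* and *Gna11* were called higher in Pdk4SMKO cells, and *Enpep* and *Agtrap* were called lower. *Lnpep* and *Gnaq* passed the adjusted p with a higher level but stayed under a fold change of 2, and *Rcan1* did not pass with all 6 libraries. *Agt*, *Agtr1a* and *Agtr1b* had too few counts to be tested. The share called, 4 of 7 or 57.1%, stood close to the 59.3% of all genes tested, so the number of calls is not a result about these genes. By adjusted p alone 4 were higher and 2 lower, where 42.0% and 37.1% of all genes were, 79.1% in all. The libraries of the genotypes did not overlap in CPM for 6 of the 7, as for 81.8% of all genes tested, of which 43.5% lay higher and 38.3% lower in Pdk4SMKO cells. Their median log2 fold change was 0.59, against 0.12 over all genes tested.

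**Figure D1:**
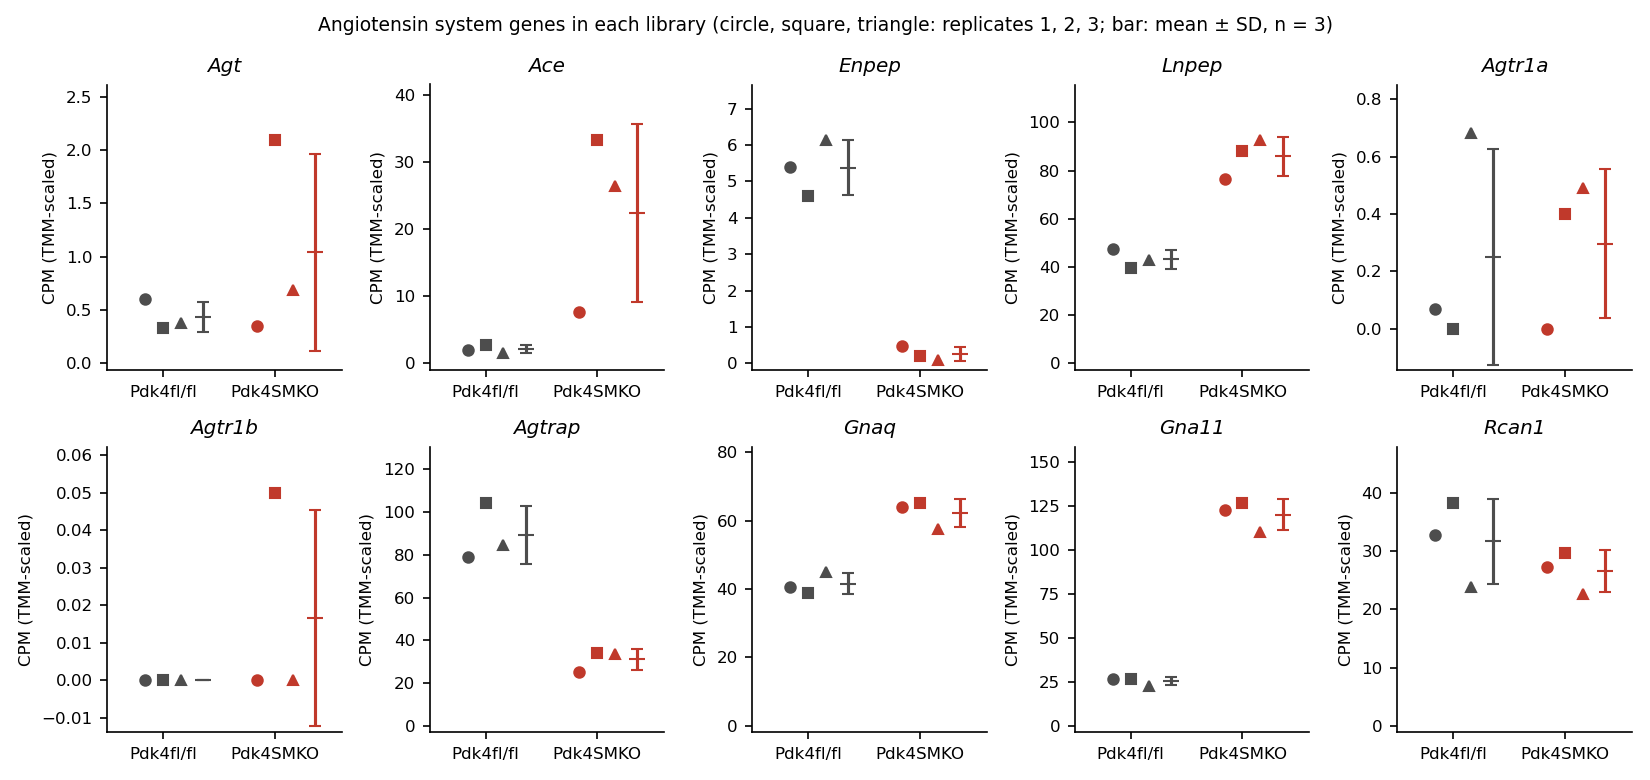
TMM-scaled CPM of each of the 10 genes in each library, with 3 Pdk4fl/fl libraries in grey and 3 Pdk4SMKO libraries in red, and the mean ± SD beside them. Each panel has its own axis, and the genotypes do not overlap for *Ace*, *Enpep*, *Lnpep*, *Agtrap*, *Gnaq* and *Gna11*.

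*Agt* (MGP_C57BL6NJ_G0034765, chromosome 8 from 132535664 to 132548855, minus strand, C57BL/6NJ assembly) encodes the precursor of all angiotensin peptides. Its counts were 9, 6 and 5 in the Pdk4fl/fl libraries and 8, 42 and 14 in the Pdk4SMKO libraries. The highest value came from the second Pdk4SMKO library, while the first Pdk4SMKO library lay within the Pdk4fl/fl range in CPM, so the genotypes overlapped. The mean was 0.436 ± 0.144 (SD, n = 3) CPM in Pdk4fl/fl and 1.04 ± 0.922 (SD, n = 3) CPM in Pdk4SMKO cells, with an exact two-sided permutation p of 0.3. Without the filter on low counts, the log2 difference was 1.29 (SE 0.60) with an adjusted p of 0.0665 in edgeR's quasi-likelihood test. Renin, the enzyme that acts on angiotensinogen, had no count for *Ren1* in any library, which allows up to 3 counts per library.

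*Ace* (MGP_C57BL6NJ_G0019680, chromosome 11 from 112589859 to 112613898, plus strand) encodes the enzyme that forms Ang II and also inactivates bradykinin. It had 31, 49 and 20 counts in the Pdk4fl/fl libraries and 173, 667 and 539 counts in the Pdk4SMKO libraries. All 3 Pdk4SMKO libraries lay above the 3 Pdk4fl/fl libraries, and the first of them, at 7.60 CPM, lay well below the other libraries, at 33.2 and 26.4 CPM. The mean level rose 10.7-fold, from 2.09 ± 0.589 (SD, n = 3) to 22.4 ± 13.3 (SD, n = 3) CPM. In edgeR's quasi-likelihood test, the log2 fold change was 3.40 (SE 0.51, 95% interval 2.27 to 4.52) with an adjusted p of 0.000128. The call held when any library was left out, with log2 fold changes between 3.00 and 3.81. An antisense gene that overlaps *Ace*, *Gm11651*, had 0 counts. The summed fibroblast markers were, like *Ace*, lowest in the first Pdk4SMKO library, at 1320 CPM against 2774 and 2561 CPM in the other libraries. Adipocyte markers were also lowest there, at 16.2 CPM against 19.8 and 25.1 CPM. Other marker sums were highest there, with mesothelial markers at 1325 CPM against 723 and 829 CPM. Endothelial markers were at 6.72 CPM against 3.33 and 4.46 CPM, and at 16.0 to 24.9 CPM in the Pdk4fl/fl libraries. Pericyte markers were at 30.4 CPM against 26.5 and 24.2 CPM. Smooth muscle markers were at 954 CPM against 842 and 723 CPM. Macrophage markers lay between 62.8 and 64.1 CPM in all 3. The part of other cells in the level of *Ace* was not tested.

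**Figure D2:**
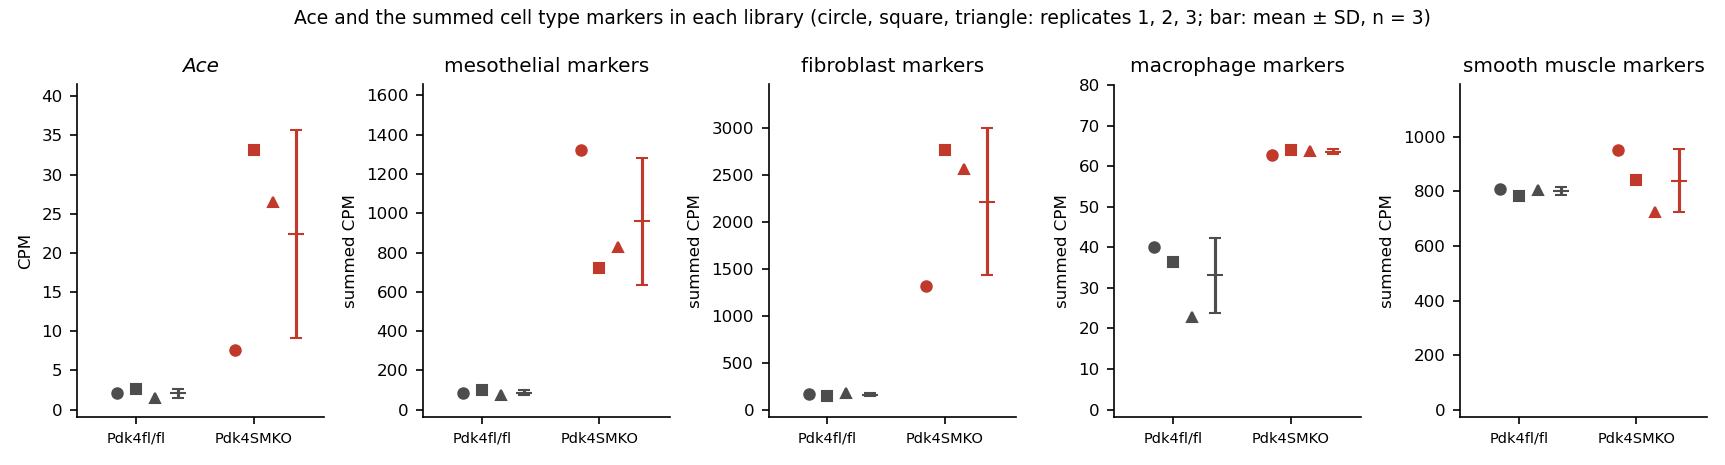
*Ace* in TMM-scaled CPM, and the summed CPM of the mesothelial, fibroblast, macrophage and smooth muscle marker lists, in each of the 6 libraries with the mean ± SD of each genotype. The first Pdk4SMKO library (red circle) had the lowest *Ace* and fibroblast values of its genotype and the highest mesothelial value.

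Ratios within a library do not depend on the scaling between libraries. Per kb of gene length, *Ace* stood to *Agt* as 1.23, 2.92 and 1.43 in the Pdk4fl/fl libraries and as 7.73, 5.68 and 13.8 in the Pdk4SMKO libraries. The ranges did not overlap, and the mean log2 ratio was higher by 2.29 in Pdk4SMKO cells, with an exact two-sided permutation p of 0.1, the smallest that 3 against 3 libraries allow. These ratios rest on 5 to 42 counts of *Agt*.

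*Enpep* (MGP_C57BL6NJ_G0028284, chromosome 3 from 136635538 to 136713134, minus strand) encodes glutamyl aminopeptidase, which converts Ang II to angiotensin III. It had 81, 84 and 81 counts in the Pdk4fl/fl libraries and 11, 4 and 2 counts in the Pdk4SMKO libraries. Every Pdk4fl/fl library lay far above every Pdk4SMKO library, and the third Pdk4SMKO library lay below the floor of 3 counts. The mean level was 20.7-fold lower, 0.260 ± 0.200 (SD, n = 3) against 5.38 ± 0.759 (SD, n = 3) CPM. The log2 fold change was -4.30 (SE 0.46, 95% interval -5.33 to -3.27) with an adjusted p of 1.15e-05 in edgeR's quasi-likelihood test. Without the first Pdk4SMKO library the log2 fold change was -5.11, and over the other libraries left out it ran from -4.38 to -3.93. It was the largest absolute change with all libraries among the 7 tested members, and 91.4% of all genes tested had a smaller one. *Enpep* passed the filter on low counts only through the Pdk4fl/fl libraries, where it is high. The size and rank of its change rest on Pdk4SMKO counts near the floor. A processed pseudogene on the opposite strand within the gene had 0 counts.

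*Lnpep* (MGP_C57BL6NJ_G0023590, chromosome 17 from 16304034 to 16407806, minus strand) encodes the insulin-regulated aminopeptidase, the binding site of angiotensin IV. It had 712, 720 and 566 counts in the Pdk4fl/fl libraries and 1746, 1775 and 1887 counts in the Pdk4SMKO libraries. The genotypes did not overlap, at 43.3 ± 3.98 (SD, n = 3) and 85.9 ± 8.24 (SD, n = 3) CPM. This 1.98-fold difference lay just under the limit of 2. The log2 fold change was 0.99 (SE 0.13, 95% interval 0.70 to 1.28), and the adjusted p was 5.21e-05 in edgeR's quasi-likelihood test, so the fold limit alone kept it from a call. Without the first Pdk4fl/fl or the first Pdk4SMKO library it was called, at 1.08 and 1.06, and so it was with upper-quartile scaling, at 1.20, library-size scaling, at 1.59, no filter on low counts, at 1.04, and at least 10 counts in every library, at 1.09.

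Other peptidases that act on angiotensin peptides were set beside these enzymes, in a grouping chosen after their counts had been seen. Summed over 11 peptidases, the level per kb was 111 ± 2.52 (SD, n = 3) CPM in Pdk4fl/fl and 131 ± 0.433 (SD, n = 3) CPM in Pdk4SMKO cells. The sum left out *Ctsa*, a lysosomal carboxypeptidase. *Ctsa* alone held 712 ± 34.1 (SD, n = 3) CPM per kb in Pdk4fl/fl and 113 ± 9.63 (SD, n = 3) in Pdk4SMKO cells. The direction of the sum and the shares below therefore hold for the 11 chosen genes alone. *Ace* made up 0.356% ± 0.0958 (SD, n = 3) of this sum in Pdk4fl/fl and 3.22% ± 1.90 (SD, n = 3) in Pdk4SMKO cells. *Enpep* made up 1.03% ± 0.164 (SD, n = 3) and 0.0420% ± 0.0323 (SD, n = 3), and *Lnpep* 7.53% ± 0.646 (SD, n = 3) and 12.6% ± 1.21 (SD, n = 3). Most of the sum came from other enzymes. *Prep* went from 16.2% in Pdk4fl/fl to 25.7% in Pdk4SMKO cells. *Dpp3*, a dipeptidyl peptidase of the cytosol, went from 8.59% to 29.7%, *Nln*, which encodes neurolysin, from 28.2% to 9.73%, and *Prcp*, a lysosomal carboxypeptidase that cuts Ang II, from 22.8% to 4.66%. *Mme*, which encodes neprilysin, had no count in any Pdk4fl/fl library and 196, 54 and 52 counts in the Pdk4SMKO libraries, at least 23.4-fold higher against the floor of 3 counts per library.

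*Agtr1a* (MGP_C57BL6NJ_G0020799, chromosome 13 from 29177970 to 29226900, plus strand) encodes the main AT1 receptor of mouse blood vessels. It had 1, 0 and 9 counts in the Pdk4fl/fl libraries and 0, 8 and 10 counts in the Pdk4SMKO libraries. In each genotype 1 library had no read, and the highest libraries lay at 0.681 and 0.491 CPM. The means were 0.249 ± 0.375 (SD, n = 3) and 0.296 ± 0.261 (SD, n = 3) CPM, with an exact two-sided permutation p of 1. Without the filter on low counts, the log2 difference was 0.37 with a 95% interval from -1.59 to 2.34, so a difference of 2-fold in either direction was not detectable at this depth. *Agtr1b* (MGP_C57BL6NJ_G0027520, chromosome 3 from 18648712 to 18707795, minus strand), the second AT1 gene, had 1 count in the second Pdk4SMKO library and 0 in the other 5 libraries. *Agtr2*, which lies on the X chromosome and encodes the type 2 receptor, had 1 count in the first Pdk4SMKO library and 0 in the other 5. *Mas1*, which encodes the receptor for angiotensin 1-7, had 0 counts in every Pdk4fl/fl library and 2, 0 and 3 counts in the Pdk4SMKO libraries. *Agtr1a* thus exceeded the floor of 3 counts in 3 of 6 libraries and *Agtr1b* in none, and their level before Ang II was not measured.

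Because the AT1 genes are near copies, reads could be shared between them. Their coding sequences, of 1080 bases each, were 90.83% identical, and in a window of 150 bases, the length of a sequencing read, they differed at 5 to 25 bases. Between any whole transcripts of the pair, the longest identical run was 66 bases. The window with the fewest differences is shown from base 259 to base 408 of each coding sequence (GENCODE M21 transcripts, GRCm38), with the differing bases in capitals. A read of full length within the coding sequence would thus meet at least 5 differences.
Agtr1a: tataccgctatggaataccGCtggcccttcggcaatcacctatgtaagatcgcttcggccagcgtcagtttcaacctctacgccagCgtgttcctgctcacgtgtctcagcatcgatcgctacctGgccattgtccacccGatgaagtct
Agtr1b: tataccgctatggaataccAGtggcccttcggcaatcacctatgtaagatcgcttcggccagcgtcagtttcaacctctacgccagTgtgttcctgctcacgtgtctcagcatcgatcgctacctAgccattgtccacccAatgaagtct

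*Agtrap* (MGP_C57BL6NJ_G0029546, chromosome 4 from 157301483 to 157313061, minus strand) encodes a protein that binds the tail of the AT1 receptor and promotes its internalization. It had 1184, 1903 and 1117 counts in the Pdk4fl/fl libraries and 577, 687 and 689 counts in the Pdk4SMKO libraries. The lowest Pdk4fl/fl library, at 78.9 CPM, lay above the highest Pdk4SMKO library, at 34.2 CPM. The mean level fell 2.87-fold, from 89.3 ± 13.4 (SD, n = 3) to 31.1 ± 5.00 (SD, n = 3) CPM. In edgeR's quasi-likelihood test, the log2 fold change was -1.52 (SE 0.16) with an adjusted p of 1.16e-05. When counts were scaled by library size alone, which moved the median of all genes up by 0.60, the log2 fold change was -0.92 and the call was lost.

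*Gnaq* (MGP_C57BL6NJ_G0025376, chromosome 19 from 14405272 to 14681932, plus strand) encodes Gαq. It had 610, 710 and 594 counts in the Pdk4fl/fl libraries and 1458, 1313 and 1173 counts in the Pdk4SMKO libraries. The genotypes did not overlap, at 41.5 ± 3.08 (SD, n = 3) and 62.3 ± 4.17 (SD, n = 3) CPM. With a 1.50-fold higher mean, a log2 fold change of 0.59 (SE 0.12, 95% interval 0.31 to 0.86) and an adjusted p of 0.00124 in edgeR's quasi-likelihood test, the difference passed the adjusted p and not the fold limit. Scaling by library size alone gave a log2 fold change of 1.19, past the limit. A processed pseudogene within *Gnaq* on the same strand had 5 counts in all.

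*Gna11* (MGP_C57BL6NJ_G0017958, chromosome 10 from 85075434 to 85091871, minus strand) encodes Gα11, which shares receptors and effectors with Gαq. It had 402, 482 and 301 counts in the Pdk4fl/fl libraries and 2795, 2549 and 2240 counts in the Pdk4SMKO libraries. Each Pdk4SMKO library, at 110 to 127 CPM, lay above each Pdk4fl/fl library, at 22.8 to 26.8 CPM. The mean level rose 4.73-fold, from 25.3 ± 2.23 (SD, n = 3) to 120 ± 8.84 (SD, n = 3) CPM. In edgeR's quasi-likelihood test, the log2 fold change was 2.24 (SE 0.13, 95% interval 1.95 to 2.53) with an adjusted p of 1.58e-07. Of all genes tested, 73.2% had a smaller absolute change.

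The balance of the alpha subunits therefore differed between genotypes within each library. Per kb, *Gnaq* stood to *Gna11* as 1.01, 0.978 and 1.31 in the Pdk4fl/fl libraries, that is near equal by the deposited gene lengths. In the Pdk4SMKO libraries the ratio was 0.346, 0.342 and 0.348. The ranges did not overlap, the mean log2 ratio was lower by 1.66 (log2 difference -1.66), and the exact two-sided permutation p was 0.1, the smallest possible. This ratio restates the fold changes of *Gnaq* and *Gna11* above and is not separate support for them. How often the ratios of other gene pairs failed to overlap was not measured. Of the summed Gq class, the level per kb of *Gnaq*, *Gna11*, *Gna14* and *Gna15*, *Gna11* made up 47.5% ± 4.31 (SD, n = 3) in Pdk4fl/fl and 73.9% ± 0.396 (SD, n = 3) in Pdk4SMKO cells. The sum itself was 13.0 ± 0.202 (SD, n = 3) CPM per kb in Pdk4fl/fl and 39.6 ± 2.84 (SD, n = 3) CPM per kb in Pdk4SMKO cells. *Gna14* had at most 10 counts and *Gna15* at most 13 in any library.

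**Figure D3:**
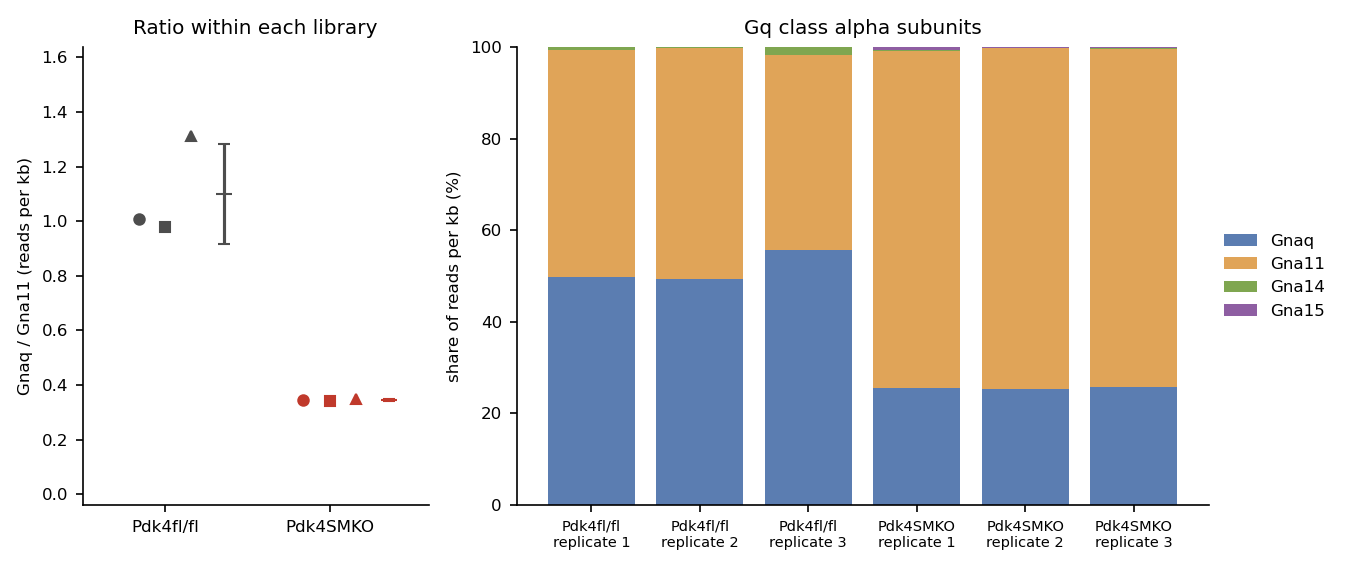
Left, the ratio of *Gnaq* to *Gna11* in reads per kb in each library with the mean ± SD (n = 3), and right, the share of each alpha subunit in the summed reads per kb of the Gq class. The ratio lay between 0.978 and 1.31 in the 3 Pdk4fl/fl libraries and between 0.342 and 0.348 in the 3 Pdk4SMKO libraries.

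The alpha subunit genes are also similar in sequence, and their coding sequences of 1080 bases each were 80.46% identical. In windows of 150 bases they differed at 14 to 49 bases, so a read of full length within the coding sequence would distinguish them. Between any whole transcripts of the pair, the longest identical run was 38 bases. The most similar window, from base 919 to base 1068 of each coding sequence (GENCODE M21 transcripts, GRCm38), is shown with the differing bases in capitals.
Gnaq: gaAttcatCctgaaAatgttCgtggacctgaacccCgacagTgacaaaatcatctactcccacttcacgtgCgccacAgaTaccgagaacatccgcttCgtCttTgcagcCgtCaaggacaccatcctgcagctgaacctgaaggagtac
Gna11: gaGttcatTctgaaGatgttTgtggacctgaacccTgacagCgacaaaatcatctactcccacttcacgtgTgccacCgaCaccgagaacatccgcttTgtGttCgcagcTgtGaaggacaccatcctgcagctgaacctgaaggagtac

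*Rcan1* (MGP_C57BL6NJ_G0023474, chromosome 16 from 96468810 to 96543347, minus strand) encodes the calcineurin inhibitor that NFAT induces, a common readout of calcium signaling downstream of the AT1 receptor. It had 492, 699 and 316 counts in the Pdk4fl/fl libraries and 623, 597 and 462 counts in the Pdk4SMKO libraries. The genotypes overlapped, at 23.9 to 38.4 CPM and 22.7 to 29.7 CPM. The means were 31.7 ± 7.30 (SD, n = 3) and 26.6 ± 3.59 (SD, n = 3) CPM, with an exact two-sided permutation p of 0.4. In edgeR's quasi-likelihood test, the log2 fold change was -0.26 (SE 0.19, 95% interval -0.68 to 0.16) with an adjusted p of 0.230, so the interval left out a 2-fold difference in either direction. Without the third Pdk4fl/fl library, its lowest in that genotype, the log2 fold change was -0.43 with an adjusted p of 0.0274 in the same test, and without the second, its highest, -0.07 with an adjusted p of 0.759. Scaling by library size alone turned its sign, to 0.34.

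*Rcan1* has 2 start sites in the RefSeq promoter table (GRCm38.p6), and the counts per gene do not separate their transcripts. The 250 bases before each start are printed, since the internal start is the one known to respond to NFAT, with matches to GGAAA, the core letters of NFAT sites, in capitals on either strand (TTTCC on the other). Upstream of the distal start, on chr16:92466170-92466419 (minus strand), there was no match. Upstream of the internal start, on chr16:92400079-92400328 (minus strand), there were 3 matches, and 6.39% of the 32851 mouse promoters in the table had at least as many in the same length. At least 1 match is found in 55.6% of them, so these letters describe the window and do not mark a site.
Rcan1 distal start: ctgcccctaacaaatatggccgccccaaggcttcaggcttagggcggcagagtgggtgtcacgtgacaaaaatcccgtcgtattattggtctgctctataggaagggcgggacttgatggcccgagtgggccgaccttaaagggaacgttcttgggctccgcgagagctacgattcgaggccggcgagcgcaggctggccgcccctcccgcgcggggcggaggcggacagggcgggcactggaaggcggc
Rcan1 internal start: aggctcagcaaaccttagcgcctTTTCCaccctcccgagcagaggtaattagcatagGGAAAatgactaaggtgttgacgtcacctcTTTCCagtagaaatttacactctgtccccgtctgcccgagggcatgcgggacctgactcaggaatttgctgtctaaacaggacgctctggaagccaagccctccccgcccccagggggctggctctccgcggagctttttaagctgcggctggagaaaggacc

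The related calcipressin *Rcan2* had 127, 148 and 101 counts in the Pdk4fl/fl libraries and 538, 558 and 402 counts in the Pdk4SMKO libraries, and was called higher with a log2 fold change of 1.55. Of the summed reads per kb of the 3 calcipressin genes, *Rcan1* made up 72.4% ± 4.90 (SD, n = 3) in Pdk4fl/fl and 52.1% ± 0.803 (SD, n = 3) in Pdk4SMKO cells, with ranges that did not overlap and an exact two-sided permutation p of 0.1. *Rcan2* made up 12.7% and 31.1%, and *Rcan3* 14.9% and 16.8%.

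**Figure D4:**
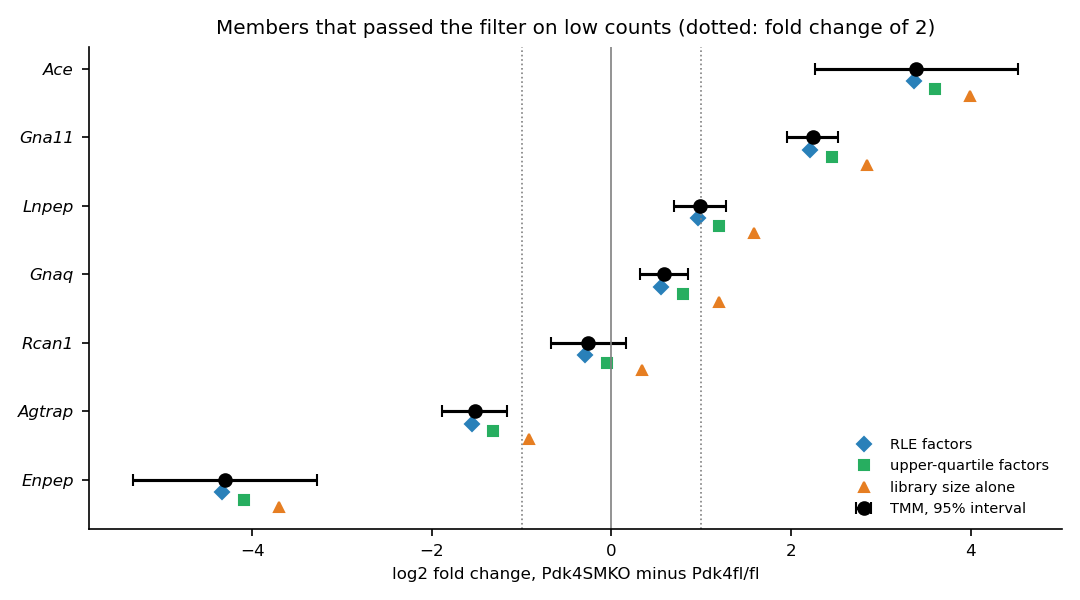
Log2 fold change (Pdk4SMKO minus Pdk4fl/fl) of the 7 members that were tested, with the 95% interval of the edgeR fit (black) and the values under 3 other scalings of the counts. Library size alone moved all 7 to the right, took *Lnpep* and *Gnaq* past the dotted line at a fold change of 2 and *Agtrap* back inside it, and turned the sign of *Rcan1*.

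Promoter sequences were at hand for 9 of the 10 genes in the RefSeq table, all but *Agtr1a*. GGGCGG, the GC box, was counted on both strands in the 250 bases before each start and occurs in 32.7% of the promoters in the table. *Gnaq* had 4 matches and *Gna11* 2, in windows with 79.2% and 73.2% GC, against a median of 52.4%. *Rcan1* had 6 before its distal start, a number that 0.886% of the promoters reach, and 1 before its internal start. *Lnpep* had 4, as *Gnaq* did, a number that 4.09% of the promoters reach, and *Ace* had 4 before its first start and none before its second, which is known as the start of the testis form. TATAAA, found in 12.4% of the promoters, was found 1 time before *Agt*, *Enpep*, *Agtr1b* and the first start of *Ace*, on the strand of the gene for *Agt* and *Agtr1b* and on the other strand for *Enpep* and *Ace*. The first *Ace* promoter, on chr11:105967698-105967947 (plus strand), is shown with GC boxes in capitals, since *Ace* had the highest log2 fold change of the members.
Ace first start: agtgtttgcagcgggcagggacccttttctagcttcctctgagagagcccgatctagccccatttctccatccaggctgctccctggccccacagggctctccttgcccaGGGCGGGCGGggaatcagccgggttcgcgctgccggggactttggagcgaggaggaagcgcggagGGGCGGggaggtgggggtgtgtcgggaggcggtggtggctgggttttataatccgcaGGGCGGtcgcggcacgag

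Levels of different genes were set side by side per kb of the deposited gene length. That length need not match the transcripts expressed, and the order of genes depends on it. *Agtrap* stood highest in Pdk4fl/fl cells at 21.1 ± 3.17 (SD, n = 3) CPM per kb, followed by *Rcan1* at 12.6 ± 2.91 and *Lnpep* at 8.35 ± 0.769. *Gnaq* at 6.74 ± 0.499 and *Gna11* at 6.19 ± 0.545 overlapped in their ranges. *Enpep* came next at 1.14 ± 0.161, and *Ace* at 0.395 ± 0.111, *Agt* at 0.231 ± 0.0762 and *Agtr1a* at 0.101 ± 0.152 CPM per kb each overlapped their neighbour in that order. In Pdk4SMKO cells *Gna11* stood highest at 29.3 ± 2.16 (SD, n = 3) CPM per kb, followed by *Lnpep* at 16.6 ± 1.59. *Rcan1* at 10.6 ± 1.43 and *Gnaq* at 10.1 ± 0.677 overlapped, as did *Agtrap* at 7.34 ± 1.18 and *Ace* at 4.24 ± 2.51. *Agt* at 0.551 ± 0.488, *Agtr1a* at 0.120 ± 0.106 and *Enpep* at 0.0553 ± 0.0424 CPM per kb followed, each overlapping its neighbour in that order. *Enpep* thus moved from above *Ace* in every Pdk4fl/fl library to below it in every Pdk4SMKO library.

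Genes around these 10 were taken from 6 lists of the angiotensin pathway, with 117 genes of which 116 were found by name and 100 were tested. Of the 100, 37 were called higher and 22 lower, that is 59%, against 59.3% of all genes tested. Among other renin-angiotensin genes, 3 of 12 were called higher and 4 lower, or 58.3%. *Ctsa*, a lysosomal carboxypeptidase, fell from 2519 to 400 CPM, *Prcp* had a log2 fold change of -2.05 and *Dpp3* of 2.03. Among genes of G protein and phospholipase C coupling, 5 of 19 were called higher and 5 lower, or 52.6%. *Gnb1*, a beta subunit shared by many G proteins, had a log2 fold change of -1.96, and *Itpr1*, the receptor that releases stored calcium, of 1.80. *Prkce*, a protein kinase C, had a log2 fold change of 1.83. The phospholipases *Plcb1* and *Plcb4* did not pass the adjusted p, at 0.29 and 0.05. *Plcb3*, at 0.69, passed the adjusted p and not the fold limit. *Plcg1*, another phospholipase C of the list, was called lower at -1.42, from 247 to 92.6 CPM.

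Of the 6 lists, receptor desensitization held the largest share of calls, with 7 of 12 called higher and 4 lower, or 91.7% beside 59.3% of all genes. That share was not tested against other lists. *Rgs4*, which speeds the turning off of Gαq and Gαi, had 407, 471 and 391 counts in the Pdk4fl/fl libraries and 3, 4 and 1 in the Pdk4SMKO libraries, with a log2 fold change of -7.69. *Rgs2*, which acts on Gαq in vascular smooth muscle, was called higher at 2.36, from 1.17 ± 0.283 (SD, n = 3) to 6.05 ± 1.14 (SD, n = 3) CPM. *Mtus1*, which encodes a protein that binds the type 2 receptor, rose from 9.94 to 125 CPM. *Grk2*, named *Adrbk1* in the table, a kinase that phosphorylates active receptors, fell from 202 to 55.6 CPM. *Arrb2*, a beta-arrestin, had a log2 fold change of -1.80, while *Arrb1*, the other beta-arrestin, was not called at 0.95. *Rgs2* and the arrestins were named after their values were seen.

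Among calcineurin and NFAT genes, 7 of 20 were called higher and 1 lower, or 40% beside 59.3% of all genes tested. *Nfatc4* had 12, 16 and 13 counts in the Pdk4fl/fl libraries and 1547, 1853 and 1447 in the Pdk4SMKO libraries, with a log2 fold change of 6.43. *Akap5*, which anchors calcineurin near the membrane, rose from 4.79 to 110 CPM, and *Orai1*, the pore of store-operated calcium entry, from 4.07 to 15.5 CPM. The gene called lower was *Ppp3cb*, a catalytic subunit of calcineurin, at -1.06. It lost its call when the third Pdk4fl/fl or the first Pdk4SMKO library was left out. In separate fits of all libraries, it also lost it with upper-quartile scaling, with library-size scaling and with at least 10 counts required in every library. *Ppp3ca*, another catalytic subunit, was not called at 0.11. In the list of RhoA, JAK and transactivation genes, 7 of 18 were called higher and 1 lower, or 44.4%. *Ptk2b*, a calcium-activated tyrosine kinase, was at 4.25. The membrane proteases *Adam10* and *Adam17* had log2 fold changes of 2.24 and -1.97.

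Among genes known to respond to Ang II, 8 of 19 were called higher and 7 lower, or 78.9% beside 59.3% of all genes tested. The matricellular genes *Ccn2* (named *Ctgf* in the table) and *Ccn1* (*Cyr61*) rose to 1391 ± 459 (SD, n = 3) and 915 ± 50.5 (SD, n = 3) CPM, with log2 fold changes of 5.58 and 4.27. *Atf3*, an immediate-early transcription factor, fell from 1562 ± 106 (SD, n = 3) to 52.9 ± 3.51 (SD, n = 3) CPM, a log2 fold change of -4.88. Since every library was treated with Ang II, these values compare genotypes under the hormone and do not measure a response to it.

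**Figure D5:**
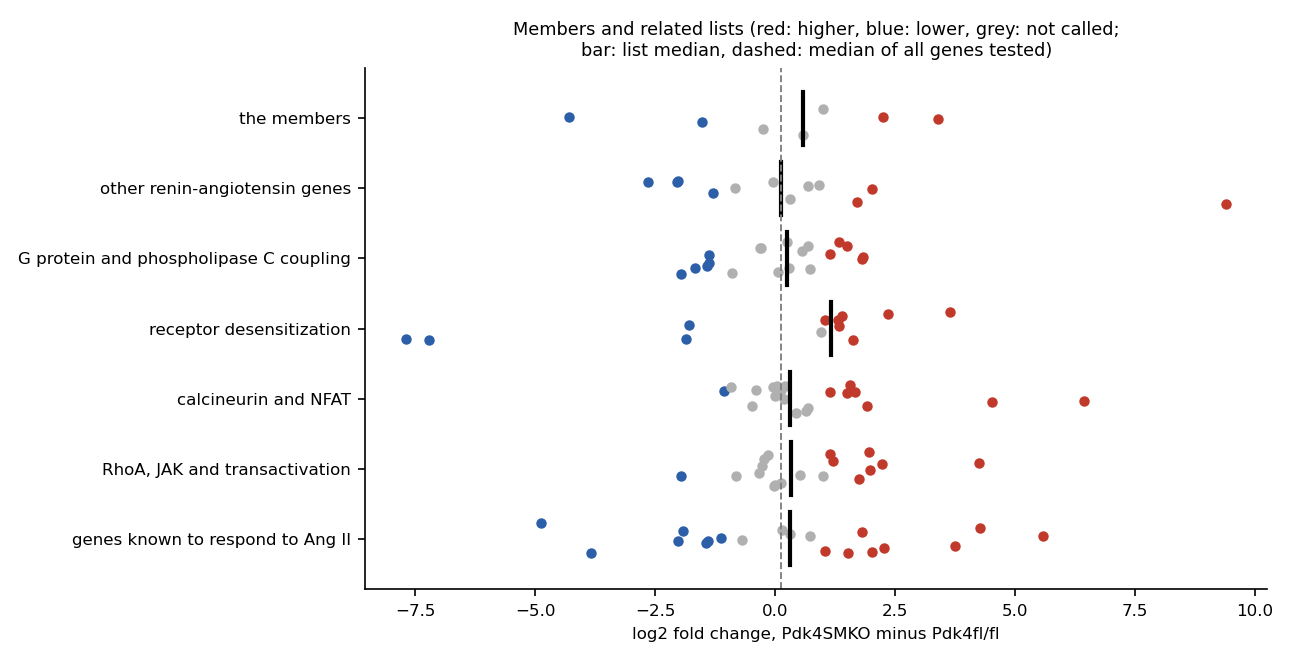
Log2 fold change (Pdk4SMKO minus Pdk4fl/fl) of each tested gene in the members' group and in the 6 related lists, with genes called higher in red, called lower in blue and not called in grey. List medians (black bars) lay between 0.13 and 1.17, the latter for receptor desensitization, beside a median of 0.12 over all genes tested (dashed).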

How the data were processed

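RNA of MASMCs was sequenced by the study as 150-bp paired-end reads, with a library kit that the labels and the methods name differently. The table deposited by the authors holds raw counts of reads on each gene, with no normalization. The aligner, the counting program and the use of strand are not given in the sources used here. The submitters' processing notes name GRCm39, while the gene identifiers belong to Ensembl's C57BL/6NJ annotation, except for 625 genes, and coordinates are printed as the table gives them. The genotype label of each library set its group.

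Analysis used edgeR 4.0.16 in R 4.3.3 (filterByExpr, TMM, quasi-likelihood test on genotype alone, Benjamini-Hochberg adjustment over all 14085 genes). Calls needed an adjusted p below 0.05 together with at least a 2-fold difference. The study's methods give the same limits and Benjamini-Hochberg correction without saying that the limit on p is for the corrected value, and the unadjusted p was an alternative. The study calls the 3 libraries of a genotype biological replicates, while the labels do not say whether they came from separate mice or cultures, and p-values measure the spread between these libraries. CPM values are TMM-scaled, levels of different genes are given per kb of the table's gene length, and floors cover counting error alone. For single values the test was an exact permutation over the libraries, two-sided, whose smallest p here is 0.1. Depth ran from 16526044 to 22481670 counts per library. No pair of libraries differed by less than sampling noise. DESeq2 1.42.0, limma voom (limma 3.58.1), 3 other scalings, 2 other filters, protein-coding genes alone, other thresholds, the replicate number as a block and leaving out each library were the alternatives.

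The members, the 6 pathway lists and the 7 marker lists were chosen with earlier results of these data known. From each pathway list the text names the 3 genes with the largest absolute log2 fold change among those called, with at least 10 CPM in the higher genotype and no overlap between genotypes. *Agtr2*, *Rcan2* and *Pdk4* were also named by rule, and 1 gene that the rule takes in is not reported here. *Ren1*, *Mas1*, *Mme*, *Nln*, *Prep*, *Gna14*, *Gna15*, *Rcan3*, *Ppp3ca*, *Ppp3cb*, the phospholipases, *Rgs2* and the arrestins were named after their values were seen. Over 6 pericyte and 6 adipocyte markers, the summed levels were 11.2 to 31.3 and 11.1 to 20.5 CPM in Pdk4fl/fl and 24.2 to 30.4 and 16.2 to 25.1 CPM in Pdk4SMKO libraries. *Rgs3* had no row under that name. Promoters came from RefSeq (GRCm38.p6) and coding sequences, as the longest open reading frame of a transcript, from GENCODE M21 (GRCm38).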

Additional observations from a re-analysis of the deposited data

How the results depend on the processing

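The calls of *Ace*, *Enpep* and *Gna11* held under every alternative that could be fitted, including DESeq2 and limma voom. Log2 fold changes ran from 3.00 to 3.99 for *Ace* and from 2.16 to 2.84 for *Gna11*. Library size alone, which moved the median log2 fold change of all genes by 0.60 and the share of higher genes among the called from 55.3% to 72.1%, gave 4 members called higher and 1 lower in place of 2 and 2, since *Lnpep* (1.59) and *Gnaq* (1.19) passed and *Agtrap* (-0.92) did not. It turned *Rcan1* to 0.34 (adjusted p 0.129 in edgeR's test), lowered the pathway genes called lower from 22 to 14 and all genes called lower from 3733 to 2390. Requiring at least 10 counts in every library left 1 member called lower, because *Enpep* was removed, and 3 called higher, with *Lnpep* at 1.09. No filter and upper-quartile factors also gave 3 higher by adding *Lnpep*. Adjusted p with any fold gave 4 members higher. Upper-quartile factors moved the median by 0.21.

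Leaving out each library gave 2 to 3 members called higher (*Lnpep* added without the first library of either genotype) and 2 lower, with *Enpep* between -5.11 (without the first Pdk4SMKO library) and -3.93 (without the third) and *Rcan1* between -0.43 (adjusted p 0.0274 in edgeR's test, without the third Pdk4fl/fl library) and -0.07. It gave 34 to 37 pathway genes higher and 21 to 22 lower. The log2 fold change of *Pdk4* ran from -2.58 to -2.13, the log2 difference of *Gnaq* to *Gna11* from -1.73 to -1.52 and that of *Ace* to *Agt* from 1.94 to 2.67.

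The genotypes share replicate numbers, and a fit with the replicate block gave 2 members higher and 2 lower, and 37 and 22 pathway genes. Deviations of same-numbered libraries correlated at 0.0505, 0.113 and 0.261. The second and the third library of each genotype correlated best with the same-numbered library of the other. The first library of each genotype correlated best with the second library of the other, at 0.0897 and 0.0759. These values do not settle whether the libraries were paired, and the main fit did not treat them as paired. The depth limits *Agt*, *Agtr1a* and *Agtr1b*, for which no call could be made.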
